A study of Homo sapiens with 4 samples.

Results

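The insulin-like growth factor (IGF) ligands and the IGF-binding proteins were examined in parental SkBr3 and BT474 breast cancer cells and in 1 lapatinib-resistant clone of each. The group held 9 genes, namely IGF1, IGF2 and IGFBP1 to IGFBP7, chosen by name as a gene family. No cut on their values was used, but earlier results of these data were known. A probe was assigned to a gene when its RefSeq accession mapped to it, which gave 16 member probes out of 41000 on the array and 23680 with a gene name. Both parental lines carry an amplified HER2 gene, and their samples were labeled as treated with vehicle. The resistant cells, SkBr3/Lap and BT474/Lap, were established by culture in increasing concentrations of lapatinib, which blocks the kinase activity of EGFR and HER2, up to 1 μM. For its protein blots the paper kept these clones in 1 μM lapatinib. The effect of the drug's presence and that of selection cannot be told apart in these samples. All cells were grown in DMEM/F12 medium. Each resistant sample is a single clone, and the clone numbers of the sample labels and of the study's text are exchanged between the cell lines, so the clones are named here without a number.

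IGF1 and IGF2 are secreted ligands that activate the IGF1 receptor, a tyrosine kinase that signals through the IRS adaptors to PI3 kinase and AKT. In extracellular fluid most IGF is held by the binding proteins IGFBP1 to IGFBP6, which bind the ligands with high affinity, prolong their half-life and control their access to the receptor. Proteases cleave the binding proteins and release the ligand, and several binding proteins also act on cells without IGF. IGFBP7 shares the amino-terminal domain of the family but binds IGF weakly. In breast tissue IGF1 comes mainly from the circulation and the stroma, and luminal epithelial cells express several of the binding proteins.

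Total RNA was hybridized to 4 arrays, 1 array for each sample, so that the fold changes could not be checked on replicates. The number of arrays limits the precision. Levels are given as the log2 of the processed signal, the background-subtracted brightness of a probe, minus the 75th percentile of the array, which was a signal of 1115 to 2074. The log2 ratio, or log2 fold change, is the level in a clone minus that in its own parent, and fold values are taken from it, so they are scaled and differ from the ratio of 2 signals. In these bulk samples a change in the share of cells that express a gene and a change in RNA per cell cannot be told apart. The lowest signal marked by the scanner software as well above background was 13.3 to 16.01, and 66.6% to 74.0% of probes were so marked. The array of SkBr3/Lap lay on a slide of its own and the other 3 arrays shared a slide, so slide and clone cannot be told apart in the SkBr3 comparison. ERBB2, the gene of HER2, had signals of 118706 to 256346 on the 4 arrays, and its log2 ratio was -1.90 for SkBr3/Lap and -0.65 for BT474/Lap. Of 7 markers of these lines, CDH1, the gene of E-cadherin, failed the background flag on both SkBr3 arrays, and the other 6 were above it on every array. Of 5 fibroblast markers with a probe, 2 were well above background in SkBr3/Lap, COL3A1 and PDGFRB, and 0 on the other arrays, and their summed signal was 430.7 in SkBr3/Lap against 20.5 to 23.04 elsewhere. DCN, LUM and COL1A2 were not well above background on any array. The 4 endothelial markers summed to 192.3 in SkBr3 and 1399 in its clone and to 909.5 in BT474 and 664.6 in its clone, and the 4 leukocyte markers to 519.5, 380.1, 150.9 and 188 in the same order. The 4 adipocyte and liver markers summed to 55.7, 43.1, 96.9 and 564.8, of which PLIN1 made up 393.2 in BT474/Lap. All these sums are of signals not scaled between the arrays. The part of these genes in the results below was not tested.

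For a comparison, a probe had to show a signal of 100 or more on 1 array or several. This kept 9 member probes of 6 genes, IGF2, IGFBP2, IGFBP3, IGFBP4, IGFBP5 and IGFBP7. IGF1, IGFBP1 and IGFBP6 stayed under that signal on each array and are described without entering the counts. The plot of levels by array shows the 9 genes together. The binding proteins fell into 3 kinds of pattern. IGFBP3 was higher and IGFBP5 lower in both clones, IGFBP2 went in different directions in the clones, and IGFBP4 and IGFBP7 were each well above background in 1 cell line only.

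**Figure D1:**
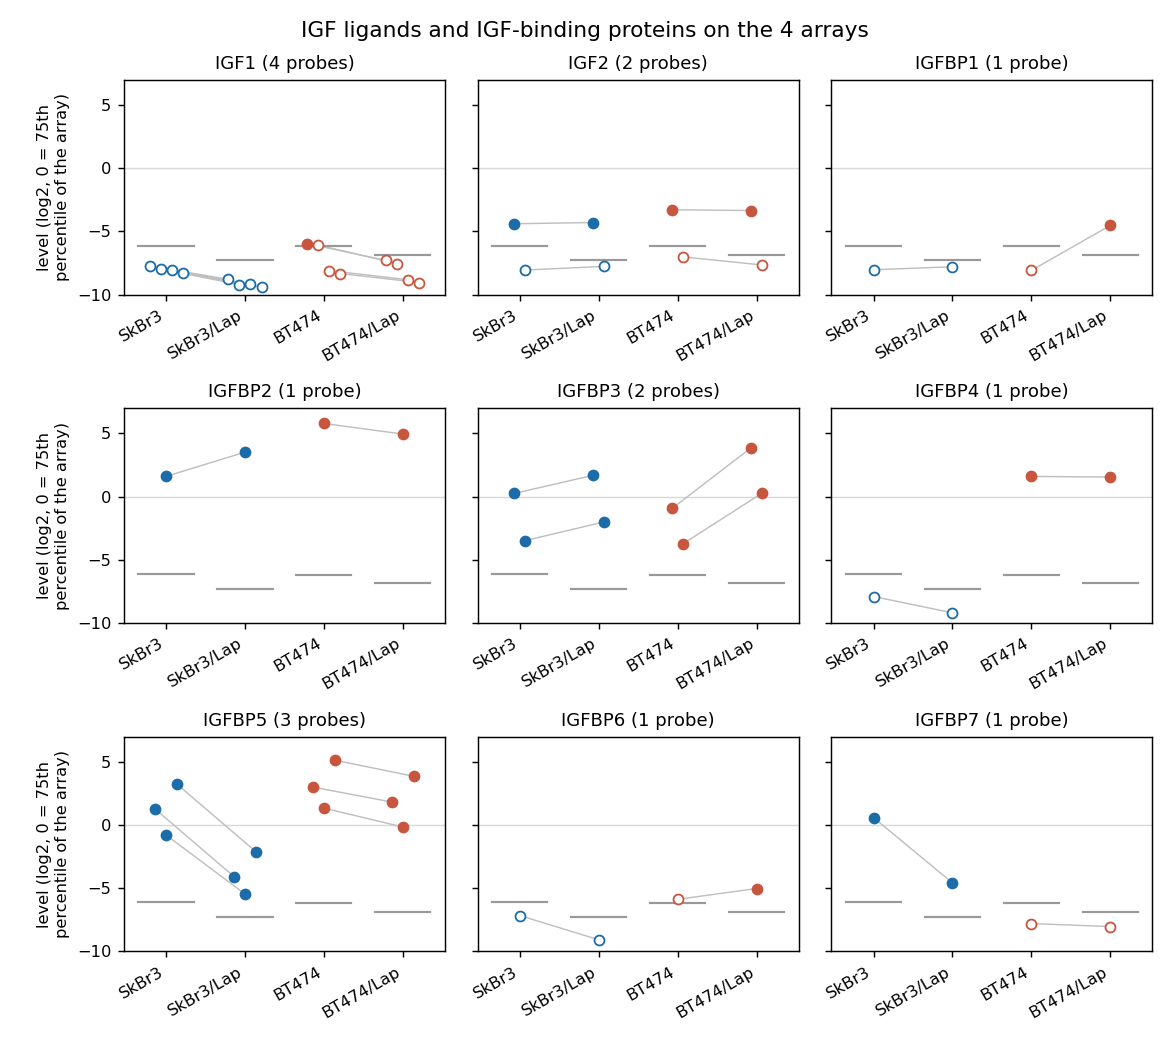
Levels of all 16 member probes on the 4 arrays, with the level on the y axis as log2 of the processed signal minus the array's 75th percentile. Filled points were well above background and open points were not, gray bars give the lowest level that the software flagged as well above background on each array, and lines join a clone with its parent. IGFBP3 lies higher and IGFBP5 lower in both clones, IGFBP4 is filled on the BT474 arrays only and IGFBP7 on the SkBr3 arrays only.

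Of the ligands, IGF1 was at or near the background, and IGF2 was dim but well above it by its brighter probe. The 4 probes of IGF1, the endocrine and stromal growth factor, had signals of 3.05 to 5.23 on the SkBr3 arrays, and none was well above background there. One IGF1 probe was spotted 10 times. Its signal was 18.5 in BT474, where 6 of the 10 spots were well above background, and 10.7 in BT474/Lap, where 1 of 10 was, and that spot was marked as an outlier at 46.1. This gave a level at least 1.83-fold lower in BT474/Lap, which did not reach 2-fold, and the other 3 IGF1 probes were not well above background on any array. The SD of the 10 spots was 0.23 on the log2 scale in BT474 and 0.83 in BT474/Lap, so that at these signals the spots of one array differed widely.

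IGF2, the fetal growth factor that is imprinted in most tissues, was measured by one of its probes on all 4 arrays. Its log2 levels were -4.40 in SkBr3 and -4.30 in SkBr3/Lap, and in BT474 and BT474/Lap they were -3.29 and -3.35. The clones differed little from their parents, with log2 ratios of 0.10 and -0.06, and neither sign held under every alternative, as the first was -0.07 with 16 added to the signals and the second 0.22 with the percentile of the probes well above background. The BT474 cells were 2.16-fold higher than the SkBr3 cells. The other IGF2 probe had signals of 4.17 to 9.48 and was not well above background on any array.

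**Figure D2:**
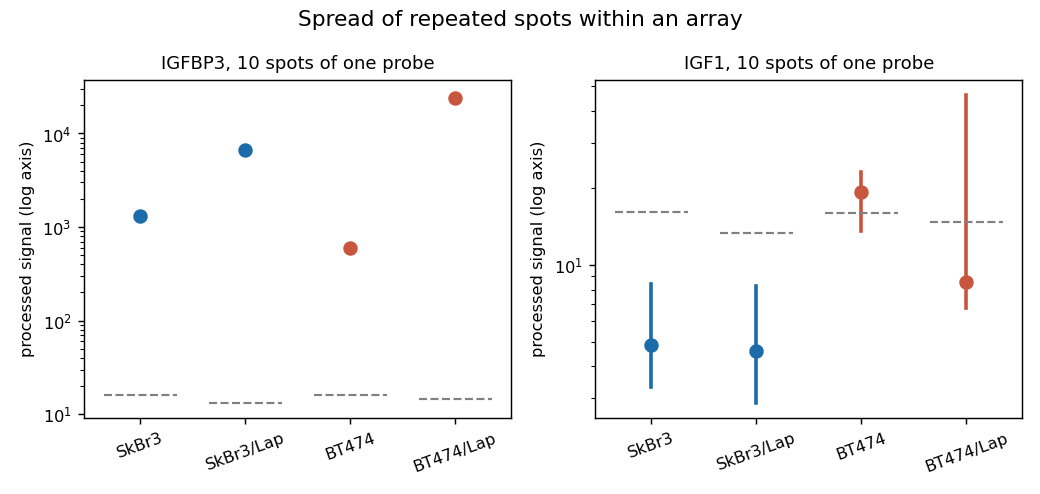
Processed signal on a log axis of the probes of IGFBP3 and IGF1 that are spotted 10 times, on each of the 4 arrays. Points are the medians of the 10 spots, bars run from the lowest to the highest spot and dashed lines give the lowest signal flagged as above background on each array. The IGFBP3 spots lie within the size of the points, whereas the IGF1 spots lie around or under the background line.

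The promoters of 4 of the 5 binding proteins with a kept probe are shown first, since their sequences differ in base composition and in the elements matched. Each is the run of 250 bases before the annotated start of the gene, from RefSeq on GRCh38.p14, printed 5′ to 3′ on the strand of the gene. Of the 9 members, 6 matched the promoter table. Capitals mark matches to the TATA box, spelled TATAAA, the GC box, spelled GGGCGG, the AP-1 element, spelled TGACTCA, the CCAAT box and the NF-κB consensus of 10 bases, searched on both strands.
IGFBP3, chr7:45921273-45921522 (minus strand): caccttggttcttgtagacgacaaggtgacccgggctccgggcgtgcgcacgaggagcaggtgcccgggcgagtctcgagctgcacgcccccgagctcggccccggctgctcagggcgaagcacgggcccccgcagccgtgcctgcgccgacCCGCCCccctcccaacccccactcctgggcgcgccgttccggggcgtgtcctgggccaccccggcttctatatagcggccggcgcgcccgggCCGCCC
IGFBP5, chr2:216695550-216695799 (minus strand): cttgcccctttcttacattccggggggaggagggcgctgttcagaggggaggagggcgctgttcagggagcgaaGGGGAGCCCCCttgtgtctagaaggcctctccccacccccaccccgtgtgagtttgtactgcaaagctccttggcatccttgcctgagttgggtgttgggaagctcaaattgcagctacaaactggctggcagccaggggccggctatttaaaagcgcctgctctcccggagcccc
IGFBP2, chr2:216632578-216632827 (plus strand): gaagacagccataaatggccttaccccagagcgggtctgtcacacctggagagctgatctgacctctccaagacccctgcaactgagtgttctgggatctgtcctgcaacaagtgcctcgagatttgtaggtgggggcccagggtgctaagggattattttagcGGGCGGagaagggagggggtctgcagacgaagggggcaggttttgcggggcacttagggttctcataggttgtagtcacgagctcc
IGFBP4, chr17:40443200-40443449 (plus strand): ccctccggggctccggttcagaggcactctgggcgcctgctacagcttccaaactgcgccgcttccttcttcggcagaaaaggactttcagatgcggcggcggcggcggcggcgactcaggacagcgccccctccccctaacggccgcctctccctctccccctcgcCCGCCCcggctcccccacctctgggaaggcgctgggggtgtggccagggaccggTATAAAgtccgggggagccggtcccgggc
Among 34788 such windows of all genes, 10.8% held the TATA box, 42.6% the GC box, 32% the CCAAT box, 4.21% the AP-1 element and 9.95% the NF-κB consensus. The IGFBP3 window had 32 CpG dinucleotides and 76.0% G and C, and that of IGFBP4 had 24 and 71.6%, against medians of 11 and 58.0% over all windows. The windows of IGFBP2 and IGFBP5 had 7 and 8 CpG dinucleotides. IGFBP3 held the GC box on the opposite strand 98 and 6 bases before the start, and IGFBP2 held it 86 bases before. IGFBP4 was the one of the 4 with the exact letters TATAAA, 29 bases before the start. Other spellings of the TATA box were not searched, so the other windows may hold one. IGFBP4 also held the GC box 83 bases before the start on the opposite strand. In IGFBP5 a single stretch in capitals, beginning 176 bases before the start, matched the NF-κB consensus in overlapping ways on both strands. These are matches of letters only, and no binding was measured.

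IGFBP3, the main carrier of IGF in serum and a binding protein that also acts on cells without IGF, was higher in both clones. Its probe spotted 10 times had log2 levels of 0.26 in SkBr3 and 1.69 in SkBr3/Lap, and of -0.94 in BT474 and 3.86 in BT474/Lap. Each clone thus lay above both parents. BT474/Lap was 27.8-fold above its parent and SkBr3/Lap 2.70-fold. The other probe of IGFBP3 gave 15.99-fold for BT474/Lap and 2.79-fold for SkBr3/Lap. The probes of IGFBP3 therefore differed by 0.05 on the log2 scale in SkBr3/Lap and by 0.80 in BT474/Lap. The SD of the 10 spots was 0.03 to 0.07 on the log2 scale on each array, a spread that says nothing of other cultures or hybridizations.

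IGFBP5, a binding protein kept in the extracellular matrix and expressed in the mammary gland as it involutes, was lower in both clones. The brightest of its 3 probes had log2 levels of 3.23 in SkBr3 and -2.11 in SkBr3/Lap. In BT474 and BT474/Lap they were 5.14 and 3.86. SkBr3/Lap was the lowest of the 4 arrays for every IGFBP5 probe and BT474 the highest. The 3 probes fell by 4.67 to 5.35 on the log2 scale in SkBr3/Lap, or 25.4- to 40.6-fold. In BT474/Lap they were 2.27- to 2.82-fold lower, with log2 ratios of -1.18 to -1.50. In BT474/Lap the call was lost by a small margin under 2 of the alternatives, at -0.99 when the percentile came from detected probes alone, those well above background, and at -0.999 with normexp correction and quantile normalization. The call was also lost at the 3-fold threshold.

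IGFBP2, a binding protein abundant in many carcinomas, lies next to IGFBP5 on chromosome 2. Its log2 levels were 1.60 and 3.52 in SkBr3 and its clone and 5.79 and 4.95 in BT474 and its clone, so that both BT474 arrays lay above both SkBr3 arrays. It was 3.78-fold higher in SkBr3/Lap, while IGFBP5 was lower there. In BT474/Lap the log2 ratio of IGFBP2 was -0.84, short of 2-fold. The difference between the clones was not tested, as each has 1 array. Scaling by the median moved the value in BT474/Lap to -1.05, past 2-fold.

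IGFBP4 and IGFBP7 marked opposite cell lines. IGFBP4, a binding protein that inhibits IGF action until it is cleaved by PAPPA, had signals of 3511 in BT474 and 4922 in BT474/Lap. On the SkBr3 arrays its signals were 4.65 and 3.54, not well above background. Parental BT474 was at least 211-fold higher than parental SkBr3, a log2 bound of 7.72 that became 6.73 with 16 added to the signals and 5.70 under normexp correction with quantile normalization, and the BT474 clone differed from its parent by a log2 ratio of -0.05. Among 12159 genes with a kept probe, 239 (1.97%) were likewise well above background on both BT474 arrays and neither SkBr3 array.

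IGFBP7, the weak IGF binder that is secreted by endothelial and epithelial cells and has been studied as a tumor suppressor, had a log2 level of 0.59 in SkBr3 and -4.57 in SkBr3/Lap, a difference of 35.8-fold. The signals were 1681 and 87.4, both well above background. SkBr3/Lap was also the array with the highest unscaled sums of endothelial and fibroblast markers. After scaling, the endothelial marker VWF was highest in BT474, with a log2 level of -0.38 against -2.70 in SkBr3/Lap. CDH5 and PECAM1 were highest in SkBr3/Lap. The part of these markers in the result of IGFBP7 was not tested. In BT474 and BT474/Lap the signals of IGFBP7 were 5.23 and 6.43, not well above background, and parental SkBr3 was at least 109-fold higher than parental BT474. As a log2 difference of BT474 from SkBr3 this bound was -6.77, and it was -5.79 with 16 added to the signals and -4.81 under normexp correction. Of the 12159 genes, 160 (1.32%) were above background on both SkBr3 arrays and neither BT474 array. The change of IGFBP7 in SkBr3/Lap was -3.94 under normexp correction with quantile normalization, in place of -5.16.

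The remaining binding proteins were dim. IGFBP1, an insulin-repressed binding protein of the liver that lies next to IGFBP3 on chromosome 7, was not well above background in SkBr3, SkBr3/Lap or BT474, with signals of 4.24 to 9.29. In BT474/Lap its signal was 72.5, at least 3.13-fold higher than in BT474. BT474/Lap also had the highest unscaled sum of adipocyte and liver markers, mostly from PLIN1 at 393.2. ALB was at 161.5, with a log2 ratio of 0.86, while APOB and ADIPOQ were not well above background on any array. The part of these markers in the value of IGFBP1 was not tested. IGFBP6, which prefers IGF2 over IGF1, was well above background in BT474/Lap only, at a signal of 51.8 against 19.7 in BT474. This was at least 1.81-fold higher. Both genes failed the signal filter, and 1 spot each stands behind these values.

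Counted by gene, 5 of the 9 members could be compared in each cell line, the kept genes with at least 1 array of the pair well above background. In SkBr3/Lap, 2 members lay 2-fold or more above the parent, IGFBP2 and IGFBP3, and 2 lay as far below it, IGFBP5 and IGFBP7. Of all 11787 genes compared there, 13.9% passed 2-fold upward and 13.4% downward, 27.3% in all. In BT474/Lap, IGFBP3 was higher and IGFBP5 lower, where 8.84% of 11835 genes passed 2-fold upward and 5.29% downward, 14.1% in all. The median log2 ratios of the members were 0.10 and -0.06, against -0.05 and -0.08 over all genes. The direction of calls moves with the scaling. With the percentile of the detected probes alone, the higher genes made up 65.7% of those called in SkBr3/Lap in place of 50.9% and 79.4% in BT474/Lap in place of 62.6%, and with scaling by the median 60.4% and 45.8%.

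**Figure D3:**
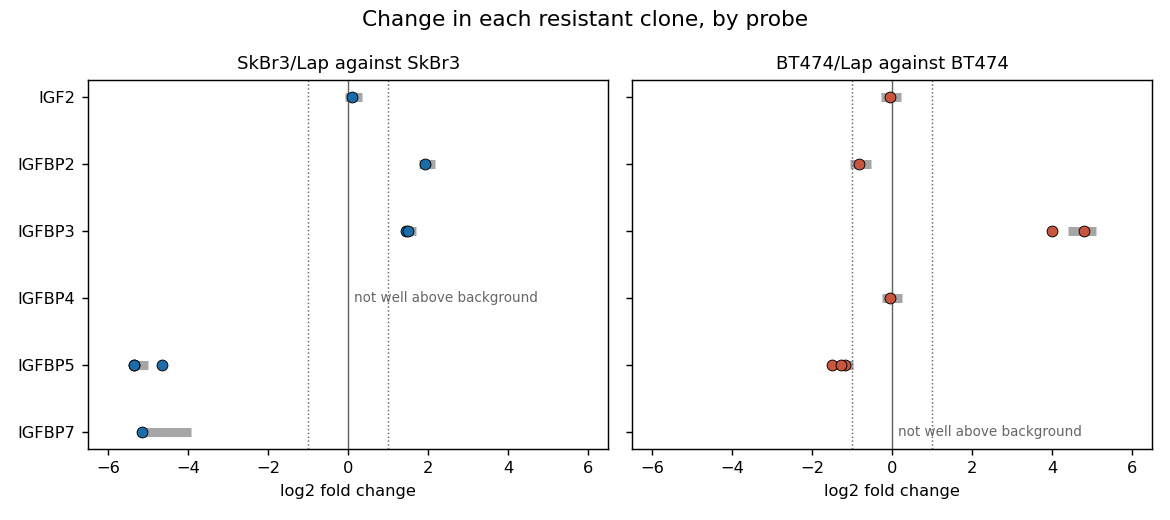
Log2 ratio of each clone against its own parent for the kept member probes, with one point for each probe. Gray bars give the range of the gene's representative value over the alternative ways of processing, and dotted lines mark 2-fold. IGFBP3 lies right of the dotted lines in both panels, and IGFBP5 lies to the left, with its bar in BT474/Lap reaching -0.99.

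Single members stood far out in these distributions. IGFBP5 in SkBr3/Lap was among the 76 lowest of 11787 genes and IGFBP7 among the 83 lowest. IGFBP3 in BT474/Lap was among the 43 highest of 11835 genes, whereas in SkBr3/Lap 1092 genes were as high or higher. Of 11463 genes compared in both cell lines, 2.61% passed 2-fold upward in both clones, as did IGFBP3, and 1.28% passed it downward in both, as did IGFBP5.

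**Figure D4:**
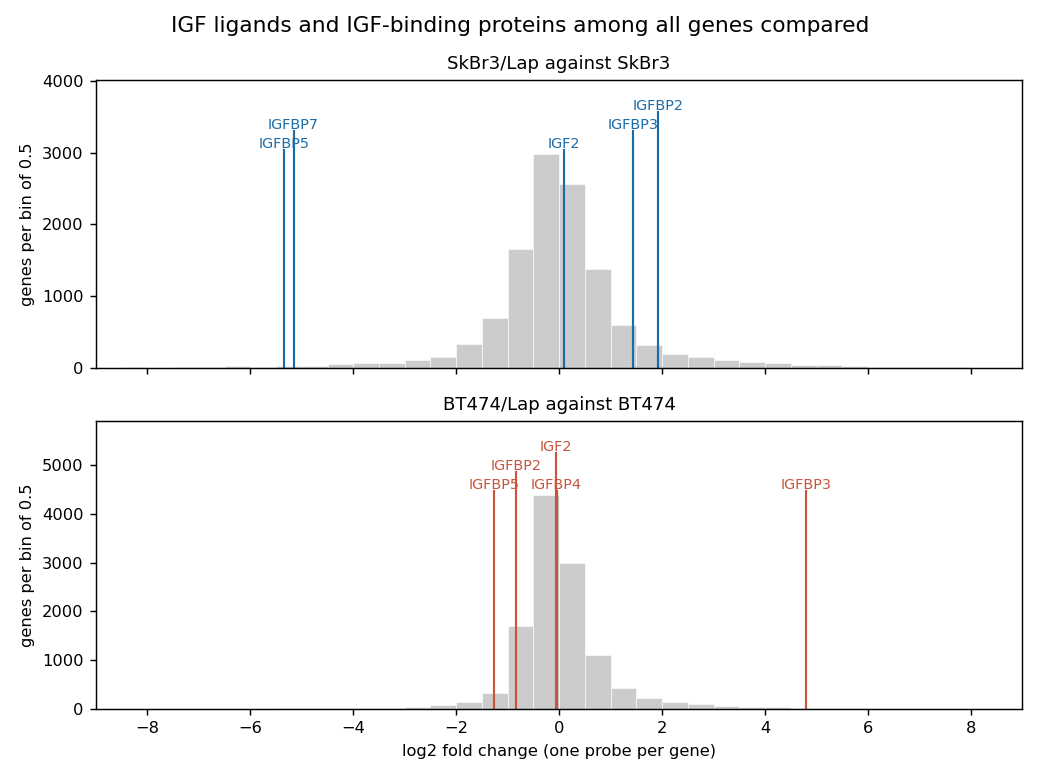
Distribution of log2 ratios over all genes compared in SkBr3/Lap (11787 genes) and BT474/Lap (11835 genes), in bins of 0.5, with the members drawn as vertical lines. IGFBP5 at -5.35 and IGFBP7 at -5.16 lie in the lower tail of SkBr3/Lap and IGFBP3 at 4.80 in the upper tail of BT474/Lap, while IGF2 lies near 0 in both.

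To ask which probes moved alike in both lines, a limma model holding the clone effect and a term for the line was fitted to all 25927 kept probes, with 1 residual degree of freedom. At a Benjamini-Hochberg adjusted p of 0.05 this limma fit called 0 probes, while the unadjusted p was below 0.05 for 900 (3.47%). The adjusted p was 1 for every member probe in this limma fit. The probes of IGFBP3 had mean log2 changes of 3.11 (SE 0.99) and 2.74 (SE 0.79), with unadjusted limma p of 0.0421 and 0.0321. The probes of IGFBP5 had mean log2 changes of -3.08 to -3.31, with unadjusted limma p of 0.038 to 0.0602. For IGFBP7, IGFBP2, IGFBP4 and IGF2 the unadjusted limma p was 0.133 to 0.971, with the signals of IGFBP7 and IGFBP4 that were not well above background entering the fit as measured. With the slide as a block in place of the cell line, the brightest IGFBP5 probe had a mean change of -0.32, since this fit leaves the array of SkBr3/Lap out of the comparison.

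The parents already differed in these genes. Of 6 members that could be compared, 4 were higher in BT474 than in SkBr3 by 2-fold or more, as were 19.4% of 11921 genes, and 2 were lower, as were 19% (38.4% in either direction). IGFBP2 was 18.3-fold higher in BT474, and the 3 probes of IGFBP5 were 3.33- to 4.38-fold higher. IGFBP3 was lower in BT474 by 2.28-fold on one probe and 1.19-fold on the other, so its call rests on the probe spotted 10 times. The call of IGF2, with a log2 difference of 1.11 between the parents, was lost under normexp correction, at 0.65, and with 16 added to the signals, at 0.91. IGF2 and IGFBP4 were the other members that were higher in BT474, and IGFBP7 the other that was lower. For IGF2, IGFBP2, IGFBP4, IGFBP5 and IGFBP7 the clones kept the order of the lines. For IGFBP3, in contrast, BT474/Lap was the highest array and BT474 the lowest.

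The genes whose levels most resembled those of a member were sought among 10935 genes well above background on all 4 arrays, by the root mean square distance between the log2 levels, each centered on its own mean. This likeness rests on 4 arrays and is a description. IGFBP2 was nearest to TMSB4X, the gene of an actin-sequestering peptide, at a distance of 0.21 and to B3GNT9 at 0.24. IGFBP3 was nearest to LY6G6C at 0.41 and to BHLHE41, a transcriptional repressor of the circadian system, at 0.51. IGFBP5 was nearest to PTK6, a non-receptor tyrosine kinase, at 0.34 and to AGR2, a protein disulfide isomerase of secretory epithelium, at 0.50. PTK6 and AGR2 had log2 ratios of -6.12 and -6.42 in SkBr3/Lap and of -0.88 and -0.54 in BT474/Lap. The log2 level of PTK6 in SkBr3/Lap, -7.125, lay close to the lowest flagged level of that array, -7.285.

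The other genes of the IGF system were described from a list of 50, of which 49 had a probe and 33 passed the signal filter. Of 32 genes compared in SkBr3/Lap, 17 passed 2-fold upward and 3 downward, with a median log2 ratio of 1.38. Of 29 compared in BT474/Lap, 11 were higher and 1 lower, with a median of 0.46. The background of all genes is that given above, 13.9% and 13.4% in SkBr3/Lap and 8.84% and 5.29% in BT474/Lap. The list was chosen with earlier results of these data known. Genes that are low in the parents passed the filter only through the clone. These counts are therefore a description.

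Among the receptors, IGF1R had log2 ratios of 1.61 for SkBr3/Lap and 0.46 for BT474/Lap. INSR, the insulin receptor, had 1.56 and 1.49. IGF2R, which clears IGF2 without signaling, had 0.25 and -0.46 and was called in neither clone. Of 5 kept adaptors, 4 passed 2-fold upward in SkBr3/Lap and 3 in BT474/Lap. SHC1 was called in neither clone, at 0.07 and -0.03, but its other probe gave 1.32 in SkBr3/Lap. IRS1 was higher by 2.06 in SkBr3/Lap and 1.59 in BT474/Lap on the log2 scale, and IRS2 by 5.20 and 1.95. The inhibitory adaptor GRB14 had log2 ratios of 2.95 and 1.08, and its relative GRB10 had 1.53 and -0.35. INSR, IRS1, IRS2 and GRB14 thus passed 2-fold upward in both clones. For IRS1 and IRS2 this held under each alternative, whereas INSR was at 0.85 in SkBr3/Lap under normexp correction, and GRB14 in BT474/Lap was at 0.87 under scaling by the median and 0.88 under normexp correction. None of the 7 kept downstream kinase genes, those of AKT and PI3 kinase subunits and PDPK1, was at least 2-fold higher in either clone. In SkBr3/Lap 6 of the 7 had a log2 ratio below 0, where the median over all genes was -0.05. PIK3R2 was the one past 2-fold in SkBr3/Lap, at -1.04, a call that was lost under 5 of the 11 alternatives. With the percentile over probes well above background, PIK3CA was called higher in BT474/Lap. The other kept probe of PIK3R1 had a log2 ratio of -1.17 in BT474/Lap, against 0.10 for the brighter probe.

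Among the genes that act on the binding proteins, HTRA1, a secreted protease with an IGFBP-like domain, had a signal of 4.39 in the SkBr3 parent and of 5453 in its clone. This was at least 183-fold higher, while HTRA1 in BT474/Lap had a log2 ratio of 0.00. ADAM12, a metalloprotease that cleaves IGFBP3 and IGFBP5, was at least 37.6-fold higher in SkBr3/Lap and not well above background in either BT474 sample. STC2, a secreted inhibitor of PAPPA, was at least 21.6-fold higher in SkBr3/Lap by its brighter probe, a log2 bound of 4.43, and had a log2 ratio of 0.79 in BT474/Lap. The other STC2 probe, which was not well above background on every array either, gave 2.97 in SkBr3/Lap. The size of this change could not be compared between the probes. PAPPA itself, the protease of IGFBP4, failed the filter, with signals of 14.9 to 47.3. CTSD, the gene of the lysosomal protease cathepsin D, had log2 ratios of -1.51 for SkBr3/Lap and 1.09 for BT474/Lap. IGFALS, the acid-labile subunit that joins IGF and IGFBP3 in serum, had a log2 ratio of 1.66 in BT474/Lap, and its signals of 20.2 in SkBr3 and 21.5 in SkBr3/Lap were too near the background for a fold.

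Other proteins with an IGFBP-like domain were also higher in several cases. CRIM1, a transmembrane member of this group, had log2 ratios of 3.01 for SkBr3/Lap and 2.29 for BT474/Lap. CCN5 had 1.31 and 2.59, and CCN3 had at least 1.91 in SkBr3/Lap and 3.76 in BT474/Lap. For CCN3 the other probe gave 0.48 in SkBr3/Lap, so the probes disagreed there. CCN1 was higher in SkBr3/Lap at 1.45 and had -0.52 in BT474/Lap, and KAZALD1 had -0.97 and -1.35. The IGF2 mRNA-binding protein IGF2BP3, an oncofetal regulator of translation, had the largest measured change of the list. Its signals were 90.4 and 31371 in SkBr3 and SkBr3/Lap, which gave a log2 ratio of 7.54, and 30.6 and 183.6 in the BT474 pair, which gave 2.05. IGF2BP2 had log2 ratios of 4.33 and 0.60, while its other probe gave 2.20 in SkBr3/Lap. Of the remaining genes, LRP1, an endocytic receptor that binds IGFBP3, was at least 7.09-fold higher in SkBr3/Lap, and TMEM219, another receptor of IGFBP3, had -1.01 there. INSL4 had 2.59 in SkBr3/Lap, and RLN2, the gene of relaxin, had 1.06 in BT474/Lap. The calls of TMEM219 and RLN2 were each lost under 5 of the 11 alternatives. Under normexp correction CCN3 in SkBr3/Lap and IGF2BP3 in BT474/Lap were at 0.97 each, and the log2 ratios of HTRA1, ADAM12, STC2 and LRP1 in SkBr3/Lap, given above as bounds, were 5.59, 3.36, 3.01 and 1.76.

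**Figure D5:**
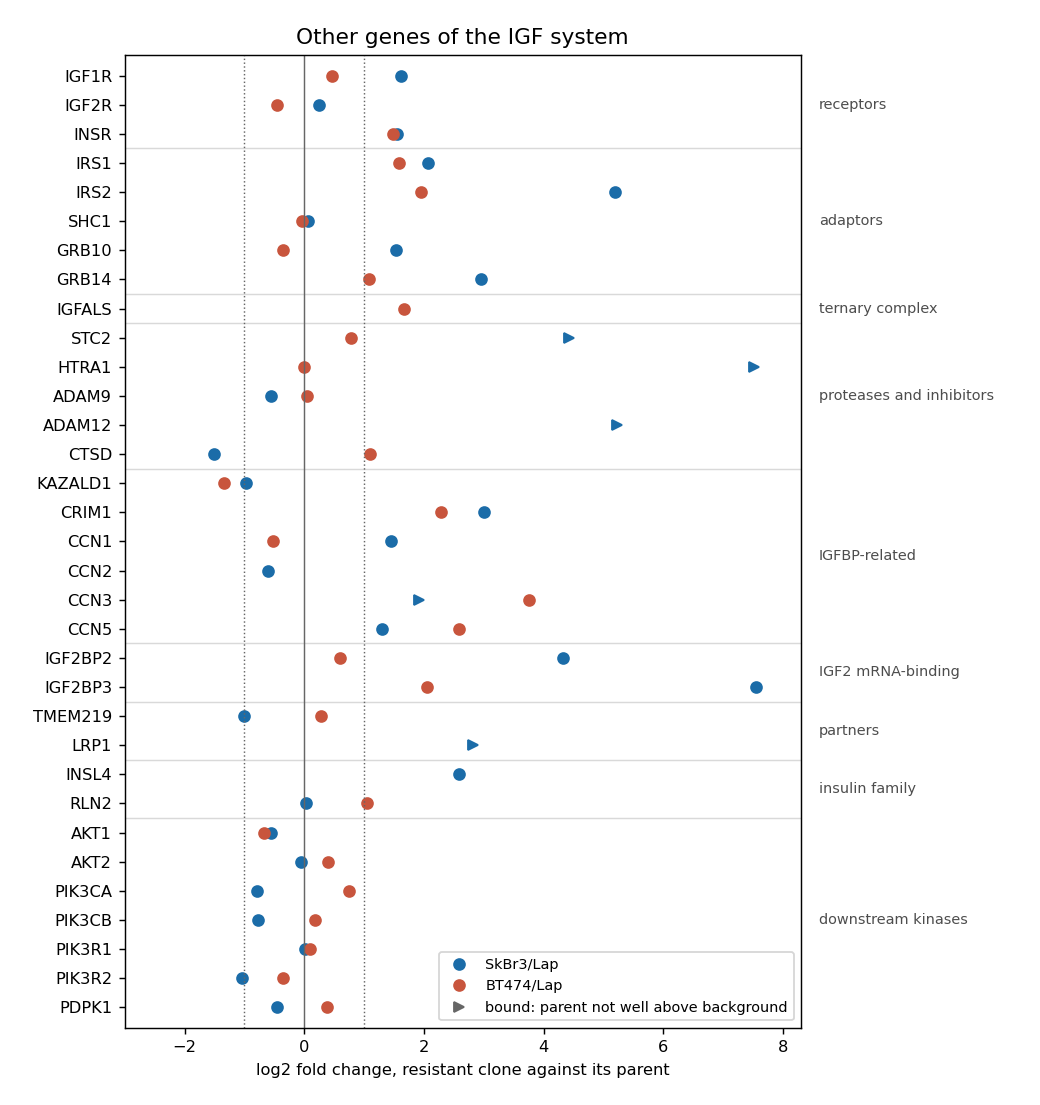
Log2 ratio of each clone against its own parent for the 33 kept genes of the IGF system outside the ligands and binding proteins, grouped by role. Triangles are lower bounds where the parent was not well above background, and dotted lines mark 2-fold. Receptors, adaptors, IGFBP-related and IGF2 mRNA-binding genes lie mostly to the right of 0 in SkBr3/Lap, while 6 of the 7 downstream kinase genes lie to the left of 0, mostly within the dotted lines.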

How the data were processed

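The members and gene lists were chosen with earlier results of these data known. The authors deposited, per the file headers, 1 Feature Extraction 10.1.1.1 file for each array with a single Cy3 channel. Its processed signal is an intensity on a linear scale after background subtraction and detrending, not scaled between arrays. The study's methods name another version of the software and LOWESS normalization. The log2 table that the authors also deposited had medians of 0.126, -0.199, 0.106 and -0.046 in SkBr3, SkBr3/Lap, BT474 and BT474/Lap; differences between its columns equaled those of the log2 processed signals up to a constant for each array, with a largest deviation of 0.617, and its centering was not stated.

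Spots of the same probe were combined as the mean of their log2 signals. From this the 75th percentile of the array, over 41000 probes, was subtracted. A probe counted as well above background with 50% or more of its spots flagged so, and no spot was saturated. Comparisons kept probes with a signal of 100 or more on any array. Where 1 signal of a pair was not, it was raised to the lowest flagged signal of its array if below it, and the fold change is a bound, given as "at least". The kept probe of highest mean level stood for a gene. All member probes were named, along with the genes of the list that were at least 2-fold changed in a clone, and a few others chosen after their values were seen. Probes were named through the RefSeq annotation of GRCh38.p14. The test was limma 3.58.1 in R 4.3.3, and the rest used Python 3.11.15, numpy 2.4.6 and pandas 2.3.3. The scripts were tested on simulated data. Alternatives were other scaling references, quantile normalization, normexp correction (offset 50, on median pixel intensities), the authors' log2 table, an offset of 16 added to signals, other filters, removal of outlier spots, a 3-fold threshold and the mean over probes.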

Additional observations from a re-analysis of the deposited data

Results flagged for a closer look

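IGFBP2 had log2 ratios of 1.92 for SkBr3/Lap and -0.84 for BT474/Lap. The clones thus moved in opposite directions, with 1 of the ratios past 2-fold, but no test of the difference could be made with 1 array for each clone. Both signs held under the 11 alternatives, with values of 1.76 to 2.17 in SkBr3/Lap and -1.05 to -0.54 in BT474/Lap. CTSD passed 2-fold in opposite directions, with log2 ratios of -1.51 for SkBr3/Lap and 1.09 for BT474/Lap, and this difference was not tested either. In BT474/Lap the ratio of CTSD was 0.89 under scaling by the median, short of 2-fold.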

How the results depend on the processing

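No fold change of a member that was at least 2-fold changed turned its sign under the 11 alternatives. Of 108 values of members in the clones, 103 stayed on their side of the threshold. The count of members lower in BT474/Lap, 1, became 0 with the percentile over probes well above background, with normexp correction and at 3-fold, and 2 with scaling by the median. At 3-fold the members higher in SkBr3/Lap numbered 1 in place of 2. When probes had to be well above background on every array, the members lower in SkBr3/Lap numbered 1 in place of 2, as IGFBP7 was not tested, and without the filter the members higher in BT474/Lap numbered 2 in place of 1, as IGFBP1 was added. Of the other IGF system genes, those lower in SkBr3/Lap, 3, became 1 with the percentile over probes well above background, scaling by the median, quantile normalization and normexp correction, 5 without the filter and 0 at 3-fold. Those lower in BT474/Lap, 1, became 3 without the filter and 0 at 3-fold. Those higher in BT474/Lap, 11, became 7 at 3-fold and 8 with scaling by the median and with normexp correction. They became 13 with the percentile over probes well above background. Those higher in SkBr3/Lap, 17, became 11 with probes above background on all 4 arrays, 13 at 3-fold and 15 with normexp correction. Where no value or the construction of the alternative shows a cause, the cause was not tested. The limma count stayed at 0 without a block, with the slide as a block, with quantile normalization and without the filter, where 308, 457, 911 and 2043 probes had an unadjusted p below 0.05. Scaling by the median moved the median log2 ratio of kept probes from -0.10 to 0.05 for SkBr3/Lap, and for BT474/Lap from -0.05 to -0.26. IGF1, IGFBP1 and IGFBP6 had signals within a few times the background on most arrays, which limits them to bounds. Beyond the limma fit with a term for the cell line, which sets each clone against its own parent, no paired analysis was possible because each group has 1 sample and the groups share only 1 replicate number.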

Other observations

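The neighbors of the members on the chromosomes, in the order of the RefSeq annotation, were read for IGFBP4 and IGFBP7, each well above background in 1 cell line only, and for IGFBP3. They were chosen after the values of the members were seen. IGFBP4 lies between TOP2A and TNS4 on chromosome 17. TOP2A, the gene of a topoisomerase of dividing cells, had signals of 3604 to 16958 and was well above background on all 4 arrays, the SkBr3 arrays included, where IGFBP4 was not. TNS4, a focal adhesion gene, had log2 ratios of 2.88 for SkBr3/Lap and 3.16 for BT474/Lap and had a log2 ratio of BT474 to SkBr3 of -6.90, whereas IGFBP4 was well above background on the BT474 arrays only. IGFBP7 lies next to POLR2B, the gene of an RNA polymerase II subunit, on chromosome 4. POLR2B had log2 ratios of -0.33 for SkBr3/Lap and -0.09 for BT474/Lap, beside the -5.16 of IGFBP7 in SkBr3/Lap. TNS3, the neighbor of IGFBP3 on the side away from IGFBP1, had log2 ratios of 1.90 and 0.62, against 1.43 and 4.80 for IGFBP3.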
